A study of Mus musculus with 15 samples.

Results

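The immediate early genes described here are 10 genes chosen by name as a family, Fos, Fosb, Junb, Arc, Egr1, Egr2, Npas4, Nr4a1, Dusp1 and Ier2, among the 29659 genes listed for each library. All 10 had a row in every library, and 9 passed the filter on low values and were fitted; Egr2 did not pass. The libraries were 15 bulk RNA-seq samples of mouse thalamus, taken at an age of 4.5 months from 4 genotypes that all carry the human APOE4 knock-in allele. The 5EL mice (n = 5) carried the 5xFAD transgenes, a model of amyloid deposition driven by the neuronal Thy1 promoter, with intact Lilrb4a. The 5ELKO mice (n = 4) were 5xFAD/APOE4+/+/Lilrb4a-/-, the EL mice (n = 3) were APOE4 knock-in mice without 5xFAD and with intact Lilrb4a, and the ELKO mice (n = 3) were APOE4+/+/Lilrb4a-/-. The Lilrb4a deletion was in the whole body and not confined to microglia. Mice were anaesthetised with pentobarbital and perfused with PBS before the right hemisphere was dissected and frozen. A figure legend states that males were used wherever results are not split by sex, which would apply to the sequencing. The methods of the sequencing give no sex. Time of day and handling before anaesthesia are not given per library in the sources used here.

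Immediate early genes are transcribed within minutes of a stimulus without new protein synthesis, through factors such as CREB and SRF that are already present in the cell. In the brain their mRNAs mark neurons that have recently been active, and they also respond to handling, stress, anaesthesia and injury. Several encode transcription factors that carry the response to a second wave of genes: FOS, FOSB and JUNB pair to form AP-1, EGR1 and EGR2 are zinc-finger factors, NPAS4 is a basic helix-loop-helix factor tied to calcium entry in neurons, and NR4A1 is an orphan nuclear receptor. Arc acts at the synapse in the removal of AMPA receptors, Dusp1 encodes a phosphatase that switches off MAP kinases, and Ier2 encodes a nuclear protein of the early growth response.

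Levels below are the deposited log2 values, on which a difference of 1 is a doubling. They are not corrected for gene length, so levels of different genes are not ranked against each other. Lilrb4a itself was 2.33 in each of the 7 libraries labelled as lacking it and between 2.34 and 2.66 in the other 8, a gap that was widest with 5xFAD (at least 2.40 in 5EL). The thalamic markers Tcf7l2, with a mean of 12.95, and Slc17a6, with a mean of 13.83, were high in all 15 libraries. Genes of neighbouring regions were also present. The cortex and hippocampus list, 10 of whose 12 genes were tested, was between 7.14 and 7.69; within it Neurod6 was at most 3.52, while C1ql2 was between 6.87 and 8.88 and Slc17a7 was at least 11.79. The habenula list ran from 7.17 to 9.52, and Oxt, a hypothalamic hormone, from 6.09 to 10.27. Mouse Apoe was between 5.92 and 6.37 in 14 libraries and 10.90 in the library labelled ELKO replicate 1, which in this gene stood apart from the others labelled with the same APOE4 allele. Without that library 0 of 9 tested members were called in ELKO against EL, in 5ELKO against ELKO or in the difference between effects. Of all genes tested, 0.556%, 1.01% and 1.3% were called there. The values of the members are given beside those comparisons. Xist, the transcript of the inactive X chromosome of females, was at most 0.31. The choroid plexus list stood apart in 5EL replicate 1 (8.09) and ELKO replicate 2 (8.46). Each list level is the mean log2 value of the list's tested genes. In no other library did the choroid plexus list exceed 6.37.

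The 250 bases before the transcription start are shown for the 6 members that moved together in the libraries, in 2 groups, and for which 1 start is listed. The sequences are from RefSeq on GRCm38.p6, read 5′ to 3′ on the gene's strand. Capitals mark TGACG, the half-site of the cyclic AMP response element (CRE) bound by CREB, on either strand, so that CGTCA marks the other strand. The first 4 belong to Fos and to members whose levels varied with it.

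Fos (chr12:85473640-85473889, plus strand): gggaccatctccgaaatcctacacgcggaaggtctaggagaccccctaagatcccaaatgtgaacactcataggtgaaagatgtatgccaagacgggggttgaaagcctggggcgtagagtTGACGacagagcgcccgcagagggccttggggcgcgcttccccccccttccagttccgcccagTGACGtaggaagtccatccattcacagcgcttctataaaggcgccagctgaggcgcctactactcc
Fosb (chr7:19310046-19310295, minus strand): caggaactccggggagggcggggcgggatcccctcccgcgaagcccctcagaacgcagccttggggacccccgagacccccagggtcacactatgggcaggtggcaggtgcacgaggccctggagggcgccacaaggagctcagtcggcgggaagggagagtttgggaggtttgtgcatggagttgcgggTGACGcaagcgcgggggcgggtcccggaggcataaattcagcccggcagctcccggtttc
Junb (chr8:84978749-84978998, minus strand): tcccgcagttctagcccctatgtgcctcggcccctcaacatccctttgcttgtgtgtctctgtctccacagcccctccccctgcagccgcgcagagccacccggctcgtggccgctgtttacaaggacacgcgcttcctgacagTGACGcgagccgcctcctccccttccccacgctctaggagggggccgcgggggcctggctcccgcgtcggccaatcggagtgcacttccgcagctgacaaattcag
Npas4 (chr19:4989972-4990221, minus strand): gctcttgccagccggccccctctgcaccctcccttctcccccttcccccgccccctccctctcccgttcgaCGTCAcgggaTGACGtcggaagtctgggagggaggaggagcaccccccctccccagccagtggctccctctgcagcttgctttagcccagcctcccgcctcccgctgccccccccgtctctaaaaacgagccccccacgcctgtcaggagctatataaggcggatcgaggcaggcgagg

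The other pair, Nr4a1 and Dusp1, went together with each other, though Nr4a1 also varied with Fos. In Dusp1 the longer capital run TGACGTCA is the full CRE, which holds a half-site on each strand.

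Nr4a1 (chr15:101266596-101266845, plus strand): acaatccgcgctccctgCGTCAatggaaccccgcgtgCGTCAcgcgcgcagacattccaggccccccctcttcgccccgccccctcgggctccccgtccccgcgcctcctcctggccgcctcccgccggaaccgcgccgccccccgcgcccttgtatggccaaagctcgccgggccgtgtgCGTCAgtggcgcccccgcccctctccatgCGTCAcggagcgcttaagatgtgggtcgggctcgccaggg
Dusp1 (chr17:26508473-26508722, minus strand): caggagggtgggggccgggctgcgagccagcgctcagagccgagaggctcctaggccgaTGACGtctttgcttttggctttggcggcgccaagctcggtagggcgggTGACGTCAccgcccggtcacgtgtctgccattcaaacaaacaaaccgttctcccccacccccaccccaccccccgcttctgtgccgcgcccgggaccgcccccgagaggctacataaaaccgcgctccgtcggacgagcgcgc

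Each of these 6 windows held at least 1 half-site, against 17.8% of all 32851 promoter windows of this length. The remaining member with windows, Egr2, has 5 that partly overlap, of which 3 held a half-site, so that 9 of the 11 member windows did. There were 2 half-sites in Fos, 1 in Fosb, 1 in Junb, 2 in Npas4, 4 in Nr4a1 and 3 in Dusp1. The half-site nearest the start began 66 bases before it in Fos, 60 in Fosb, 106 in Junb, 169 in Npas4, 40 in Nr4a1 and 140 in Dusp1. The full CRE was found in Dusp1 at 143 bases before the start and in 1.55% of all windows. Fos also held the TATA motif TATAAA at 33 bases before the start, as did 12.4% of windows at any position. Fosb and Nr4a1 each held the Egr motif GCGNGGGCG, found in 4.70% of windows, at 50 and 60 bases before the start. None of the 6 windows held the AP-1 site TGANTCA, found in 6.75% of all windows. None held a CArG box, CC and GG around 6 bases of A or T, found in 1.47%. Windows of Egr2 did hold CArG boxes. No window was available for Egr1, Arc and Ier2. These matches are letters in a window and say nothing of binding in these mice.

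Fos (chr12:85473890-85477273 on GRCm38, plus strand) encodes the AP-1 subunit most used as a marker of neuronal activity. Its level was 9.34, 8.88, 9.17, 8.41 and 8.64 in 5EL replicates 1 to 5 and 8.97, 9.14, 8.67 and 8.51 in 5ELKO replicates 1 to 4. It was 8.81, 9.10 and 8.38 in EL replicates 1 to 3 and 8.94, 8.81 and 8.41 in ELKO replicates 1 to 3. High and low libraries occurred in every genotype, and all groups overlapped. The span from EL replicate 3 to 5EL replicate 1 was 1.95-fold, while the 4 group means lay within 0.17 of each other on the log2 scale. 5ELKO was 0.07 below 5EL (log2 difference -0.07, SE 0.18, adjusted p = 0.999 by limma).

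Fosb (chr7:19302696-19310051, minus strand), another Fos-family subunit, had the widest span of the members. It was 7.55, 7.07, 7.39, 6.62 and 6.67 in 5EL and 7.29, 6.78, 6.56 and 6.42 in 5ELKO, in replicate order. It was 7.02, 6.89 and 6.14 in EL and 6.85, 6.86 and 6.49 in ELKO. The lowest value, in EL replicate 3, and the highest, in 5EL replicate 1, differed 2.65-fold. The difference of 5ELKO from 5EL was -0.30 (SE 0.21, adjusted p = 0.999), and 2 of the 4 5ELKO libraries were below all 5EL libraries. The difference of 5EL from EL was 0.38 (SE 0.25, adjusted p = 0.644), and 3 of the 5 5EL libraries were above all EL libraries. Neither difference passed the nominal threshold.

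Junb (chr8:84974484-84978718, minus strand) encodes a Jun-family partner of the Fos proteins. It was 7.83, 7.90, 7.92, 7.63 and 7.73 in 5EL and 7.75, 7.55, 7.47 and 7.43 in 5ELKO. It was 7.64, 7.56 and 7.17 in EL and 7.66, 7.68 and 7.46 in ELKO. The 5EL libraries were the highest as a group, with 4 of 5 above every EL library and 3 of the 4 5ELKO libraries below every 5EL library, and in both comparisons the ranges still overlapped. Against EL, 5EL was higher by 0.34 (SE 0.11, 1.27-fold, limma nominal p = 0.00577, adjusted p = 0.630, exact permutation p = 0.0714). The smallest exact p that 5 against 3 libraries allow is 0.0357. This was the only call among the 9 tested members in that comparison at the threshold of a nominal p under 0.05 and a fold over 1.2, where 2.41% of all 15804 genes tested were called and 1.53% were called higher. Without EL replicate 3 the difference was 0.20 and the call was lost, in a setting where 0.543% of all genes were called. The call was also lost with the cortex and hippocampus list as a covariate (0.26).

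Compared with 5EL, Junb in 5ELKO was lower (difference -0.25, SE 0.08, nominal p = 0.00923, adjusted p = 0.999), with an exact permutation p of 0.0476 where 0.0159 is the smallest possible. The fold was 1.19, just under the threshold, so that 0 of 9 members were called there, against 0.254% of 15743 genes. By the nominal p alone, Junb was 1 of 9, against 2.49% of genes. Leaving out 5EL replicate 4, 5EL replicate 5 or 5ELKO replicate 1 brought Junb past the fold threshold (-0.29, -0.27 and -0.32), where 0.267%, 0.312% and 0.463% of all genes were called. The difference between the deletion's effect with 5xFAD and without it was -0.39 for Junb in the fit of all libraries (SE 0.16, n = 15, nominal p = 0.0232, adjusted p = 0.9996). Junb was the only member called there, against 1.2% of genes, with 0.532% called below 0. Of the 190 genes called there, 106 were above 0 and 84 below it; with the libraries recentred to a common median the split was 142 and 59, with quantile normalization 127 and 63, and Junb kept its sign and call in both. That call was lost without EL replicate 3 (-0.25), without ELKO replicate 1 (-0.36) and without ELKO replicate 2 (-0.35). In those settings 0.866%, 1.3% and 0.878% of all genes were called. No member reached an adjusted p under 0.05 in any comparison; in 5ELKO against 5EL 0.0191% of genes did, and in the others 0%. The comparisons share libraries: 5EL enters both as the reference of 5ELKO and as the group set against EL, and the difference of effects uses all 4 groups.

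Junb exons overlap those of Prdx2 on the opposite strand, and the authors counted without regard to strand, so reads in the overlap cannot be assigned. Prdx2 had a mean level of 11.96, was 0.10 lower in 5EL than in EL, and went the other way from Junb over the libraries (r = -0.46, n = 15, given as a description). Marker lists also differed between the groups of these comparisons. The hepatocyte list, 11 of whose 12 genes were tested, was between 5.31 and 5.75 in 5ELKO and between 4.95 and 5.14 in 5EL, and Alb was 7.22 to 8.38 against 5.77 to 6.55. The thalamic list, with all 12 genes tested, was between 11.61 and 11.86 in 5EL and between 11.87 and 11.98 in EL. Their part in the Junb differences was not tested. In bulk tissue, fewer cells that express a gene and less RNA of it per cell cannot be told apart.

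**Figure D1:**
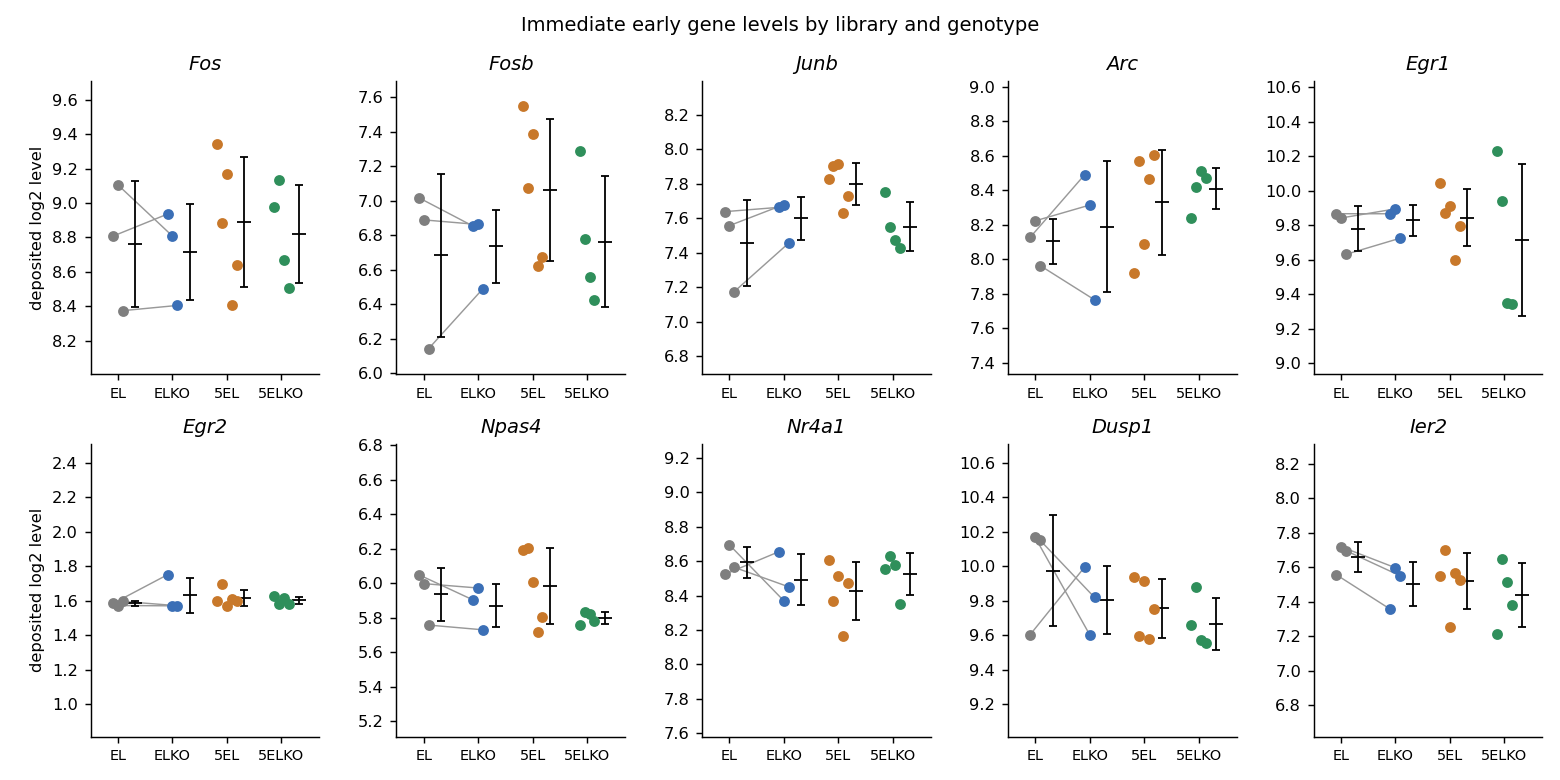
Deposited log2 level of each of the 10 genes in each library (points, in replicate order from left to right) for EL, ELKO, 5EL and 5ELKO, with the group mean and SD as black bars and grey lines joining the EL and ELKO libraries of the same number. Every panel spans 1.7 log2 units; the Junb points of 5EL lie between 7.63 and 7.92, and the lowest Fosb point is EL replicate 3 at 6.14.

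Egr1 encodes a zinc-finger factor that is also expressed in the resting brain. It was 10.04, 9.87, 9.91, 9.60 and 9.79 in 5EL and 10.23, 9.94, 9.35 and 9.34 in 5ELKO. It was 9.87, 9.84 and 9.63 in EL and 9.87, 9.90 and 9.73 in ELKO. The 5ELKO group held both the highest and the lowest libraries of all 15, with an SD of 0.44 against 0.16 in 5EL, 0.13 in EL and 0.09 in ELKO. The difference of 5ELKO from 5EL was -0.13 (SE 0.16, adjusted p = 0.999). Without 5ELKO replicate 1, the highest library, it was -0.30, and Egr1, Fosb and Junb were then 3 members called where 0 were called with it, while the calls among all genes went from 40 of 15743 to 73 of 15762.

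Egr2 (chr10:67535475-67542188, plus strand), which encodes a related zinc-finger factor, was listed between 1.57 and 1.75 in all 15 libraries. No library reached the filter of 10 on the linear scale, 3.32 in log2, and it was left out of the limma fit. The lowest exact permutation p in the 4 group comparisons was 0.214, in 5EL against EL. Its highest values were 1.75 in ELKO replicate 1 and 1.70 in 5EL replicate 2. The SD within groups was 0.0548, and over the 3259 genes with a mean within 1 log2 unit of its own the median SD was 0.0305, so the deposited scale moved little at this level.

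Npas4 (chr19:4984355-4990316, minus strand), which in the brain is induced by depolarisation of neurons more selectively than the other members, was 6.19, 6.20, 6.01, 5.72 and 5.81 in 5EL and 5.76, 5.83, 5.82 and 5.78 in 5ELKO. It was 6.05, 5.998 and 5.76 in EL and 5.90, 5.97 and 5.73 in ELKO. The 5ELKO libraries lay close together, with an SD of 0.04 against 0.22 in 5EL, and all within the range of 5EL. The difference of 5ELKO from 5EL was -0.19 (SE 0.10, nominal p = 0.0758, adjusted p = 0.999, exact permutation p = 0.206).

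Nr4a1 (chr15:101254269-101274795, plus strand) was 8.61, 8.37, 8.51, 8.17 and 8.47 in 5EL and 8.55, 8.63, 8.58 and 8.35 in 5ELKO. It was 8.52, 8.69 and 8.56 in EL and 8.65, 8.37 and 8.45 in ELKO. Its group means ran in another order than those of Fos and Fosb, with EL highest and 5EL lowest, and 4 of 5 5EL libraries were below every EL library. The difference of 5EL from EL was -0.17 (SE 0.10, nominal p = 0.0997, adjusted p = 0.636, exact permutation p = 0.143).

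Arc (chr15:74669083-74672570, minus strand), whose mRNA is carried into dendrites, was 7.92, 8.57, 8.09, 8.47 and 8.60 in 5EL and 8.24, 8.42, 8.51 and 8.47 in 5ELKO. It was 8.13, 8.22 and 7.96 in EL and 8.49, 8.31 and 7.77 in ELKO. The 2 libraries lowest in 5EL, replicates 1 and 3, were the 2 highest of the group in Fos and Fosb. The difference of 5EL from EL was 0.23 (SE 0.17, adjusted p = 0.658), and that of 5ELKO from ELKO was 0.22 (SE 0.17, adjusted p = 0.999). Of the 60 combinations of a member and a pair of groups, Arc in 5ELKO and EL, which differ in both 5xFAD and Lilrb4a, was the only 1 whose ranges did not overlap. The share of all genes with separate ranges was not counted for that pair of groups, so this is not read as a trait of Arc. In the 4 comparisons of the design 0 of 9 tested members had separate ranges, against 1.06% of genes in 5ELKO against 5EL, 4.59% in ELKO against EL, 3.26% in 5EL against EL and 3.4% in 5ELKO against ELKO.

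Dusp1 (chr17:26505590-26562128, minus strand) was 9.94, 9.60, 9.92, 9.58 and 9.76 in 5EL and 9.66, 9.88, 9.57 and 9.56 in 5ELKO. It was 9.61, 10.17 and 10.15 in EL and 9.997, 9.60 and 9.82 in ELKO. EL replicates 2 and 3 were the highest of all libraries, and EL replicate 1 was near the lowest. The difference of 5EL from EL was -0.22 (SE 0.13, adjusted p = 0.644) and that of ELKO from EL -0.17 (SE 0.15, adjusted p = 0.998). Both passed the nominal threshold without EL replicate 1, at -0.40 and -0.35, a setting in which 1429 and 914 of 15831 genes were called, or 9.03% and 5.77%. Over all annotated transcripts, Dusp1 exons overlap those of Ergic1 on the opposite strand, which had a mean level of 11.28. Which Dusp1 transcript the overlap touches was not checked.

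Ier2 (chr8:84661331-84662852, minus strand) was 7.55, 7.70, 7.25, 7.56 and 7.52 in 5EL and 7.21, 7.65, 7.52 and 7.38 in 5ELKO. It was 7.56, 7.72 and 7.70 in EL and 7.35, 7.60 and 7.55 in ELKO. The groups overlapped throughout, and ELKO was below EL in each of the 3 same-numbered pairs. The difference of ELKO from EL was -0.16 (SE 0.12, adjusted p = 0.998).

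By comparison, the study's own contrast of 5ELKO with 5EL placed the 9 tested members between -0.30 (Fosb) and 0.10 (Nr4a1), with 2 of 9 above 0. The median of the members was -0.09, against 0.0016 over all genes tested. All 9 intervals of 95% lay within a 2-fold change in either direction, and those of Fosb (-0.75 to 0.15) and Fos (-0.45 to 0.32) were the widest.

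Among mice without 5xFAD, ELKO and EL differed by between -0.17 (Dusp1) and 0.14 (Junb), and 0 of 9 members were called, against 0.538% of genes. No member had a nominal p under 0.05, where 2.35% of genes did. EL and ELKO libraries of the same number deviated together over all genes, and with the number as a replicate block 237 of 15804 genes were called in place of 85, with 0 members among them. Without EL replicate 1, Dusp1 was called. Without ELKO replicate 1, in which mouse Apoe was high, the members lay between -0.26 (Dusp1) and 0.11 (Junb). The erythroid list, with 3 of 5 genes tested, was 5.15 to 6.93 in EL and 4.78 to 4.91 in ELKO; its part was not tested.

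The 5xFAD transgenes were compared with each state of Lilrb4a. With intact Lilrb4a, 6 of 9 members were above 0, from -0.22 (Dusp1) to 0.38 (Fosb), and Junb was the member called. Without EL replicate 1 Dusp1 was also called, and without EL replicate 3 no member was. In the mice lacking Lilrb4a, 5ELKO differed from ELKO by between -0.14 (Dusp1) and 0.22 (Arc), and 0 of 9 members were called, against 0.399% of genes. Without ELKO replicate 1 the range was -0.13 (Ier2) to 0.37 (Arc). For 4 against 3 libraries the exact permutation test cannot go below 0.0571. For the difference between the deletion's effects, 3 of 9 members were above 0, and the intervals were wide, as for Fos (-0.67 to 0.63). Without ELKO replicate 1 the members lay between -0.36 (Junb) and 0.29 (Nr4a1). Blocking on the number of the EL and ELKO pairs left Junb the only member called, with a nominal p of 0.00657, while the genes called in all went from 190 to 346.

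**Figure D2:**
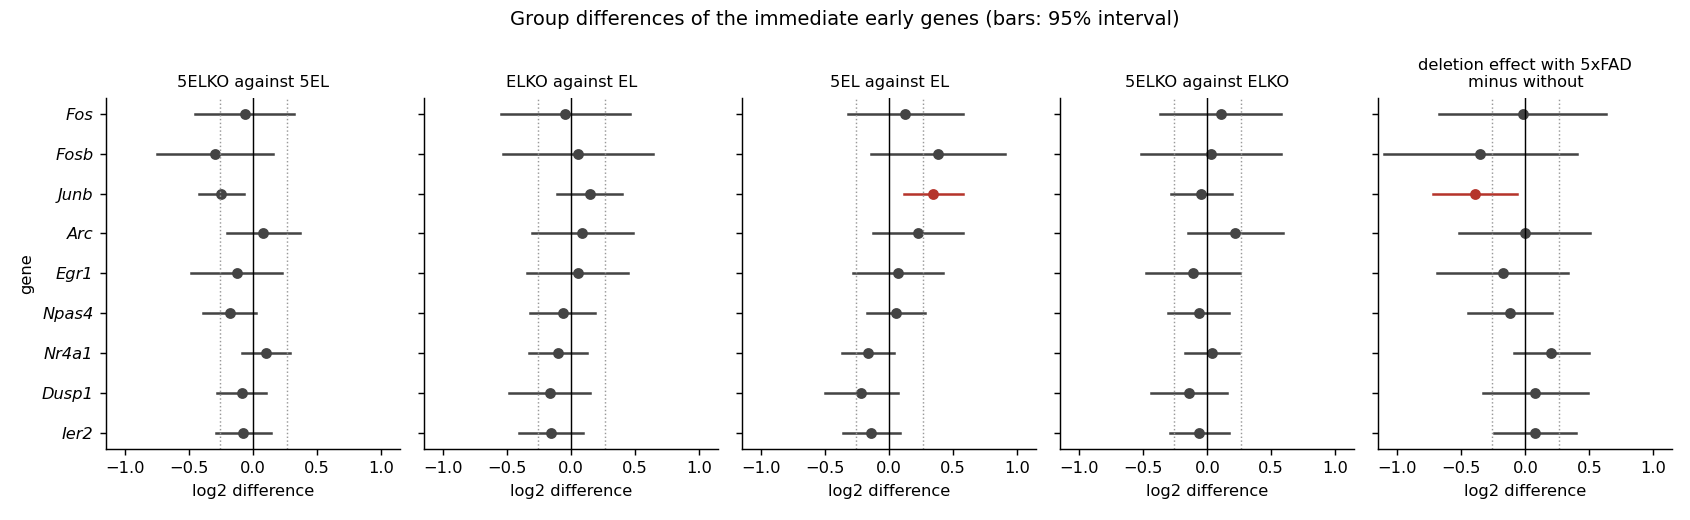
Log2 difference (points) and 95% interval (bars) of the 9 tested members in the 4 group comparisons and in the difference between the deletion's effects; dotted lines mark the fold threshold of 1.2 and red marks a member called at a nominal p under 0.05 with a fold over 1.2. Junb is the only member in red, at 0.34 in 5EL against EL and at -0.39 in the difference between effects.

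The members varied more from library to library within a genotype than most genes did. The SD within groups, pooled over the 4 genotypes, was 0.39 for Fosb, 0.34 for Fos, 0.26 for Egr1, 0.26 for Arc and 0.21 for Dusp1. The median over all 15804 genes tested was 0.0980 and the 90th percentile was 0.184, so these 5 members were above the 90th percentile. Npas4 (0.16), Junb (0.16), Ier2 (0.15) and Nr4a1 (0.14) were above the median and below the 90th percentile. Among genes whose mean level was within 1 log2 unit of its own, Fosb had a larger SD than 97.8% of 3139 genes and Fos a larger SD than 97.9% of 4770 genes. The span of the 4 group means was smaller than the SD within groups for 3 of 9 members, Fos (0.17), Fosb (0.38) and Egr1 (0.13). It was larger for the other 6, Junb (0.34), Dusp1 (0.31), Arc (0.31), Ier2 (0.22), Npas4 (0.19) and Nr4a1 (0.17). The share of all genes with a span larger than the SD was not counted. These 6 are therefore not read as differing between genotypes.

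**Figure D3:**
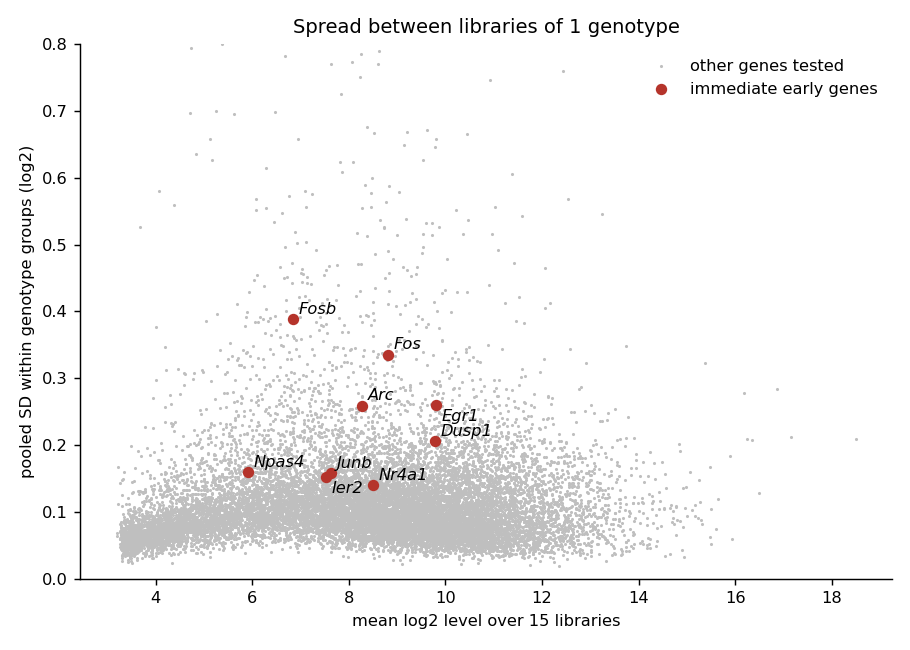
Pooled SD within genotype groups against mean log2 level for the genes tested in 15 libraries (grey) and the 9 tested members (red); 13 genes lie above the top of the plot. Fosb, at 0.39, and Fos, at 0.34, lie above most genes of like level, and Nr4a1, at 0.14, lies nearest the bulk.

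The libraries with low levels recurred across members. EL replicate 3 was among the 3 lowest of the 15 libraries for 5 of the 9 tested members, and among the 3 highest for 2. ELKO replicate 3, 5EL replicate 4 and 5ELKO replicate 4 were each among the 3 lowest for 5 and the 3 highest for 0. All 4 genotypes thus had such a library. How often these libraries were lowest over all genes was not counted. At the other end, 5EL replicate 1 was among the 3 highest for 5 members, and EL replicate 2 was the highest library for Nr4a1, Dusp1 and Ier2. The mean deviation of the 9 members from their 15-library means ran from -0.20 in 5ELKO replicate 4 to 0.21 in 5EL replicate 1. The oligodendrocyte list was highest in 5ELKO replicate 4 (13.19), ELKO replicate 3 (13.18) and EL replicate 3 (13.18), and the endothelial list was highest in the same 3 libraries (9.44, 9.45 and 9.41). Relations of the 9 members with 13 marker lists gave 117 tests, of which 0 passed an adjusted p of 0.05. The strongest with the endothelial list was that of Junb (r = -0.75, permutation p = 0.00102, adjusted p = 0.0538; rho = -0.71, permutation p = 0.00378, adjusted p = 0.118; r = -0.72 without the 2 libraries farthest from the list's median, n = 15). The strongest with the oligodendrocyte list was that of Fos (r = -0.70, permutation p = 0.00440, adjusted p = 0.0735; rho = -0.66, permutation p = 0.00835, adjusted p = 0.123; r = -0.71 without the 2 farthest libraries). Arc went up with the striatal list (r = 0.75, permutation p = 0.00134, adjusted p = 0.0538; rho = 0.64, permutation p = 0.0122, adjusted p = 0.127) and less so without the 2 farthest libraries (r = 0.55). It went up about as much with the habenula list (r = 0.74, permutation p = 0.00184, adjusted p = 0.0538; rho = 0.71, permutation p = 0.00404, adjusted p = 0.118; r = 0.56 without the 2 farthest libraries). With the cortex and hippocampus list its r was 0.71 (permutation p = 0.00269, adjusted p = 0.0629; rho = 0.76, permutation p = 0.00136, adjusted p = 0.118; r = 0.63 without the 2 farthest libraries).

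**Figure D4:**
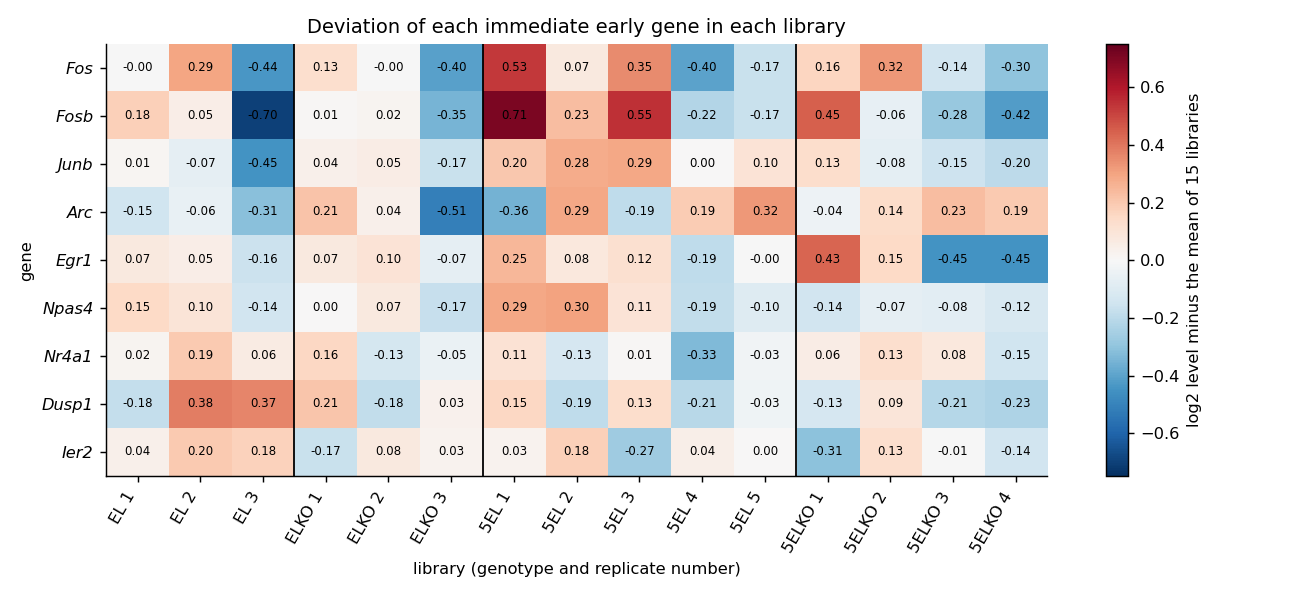
Log2 level of each tested member minus its mean over the 15 libraries, by library; red is above and blue below that mean, and black lines separate the genotypes. Fos, Fosb and Junb share red cells in 5EL replicates 1 and 3 and blue cells in EL replicate 3 (-0.44, -0.70 and -0.45), while Arc is blue in 5EL replicate 1 (-0.36).

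The same-numbered EL and ELKO libraries showed this most clearly. The library numbered 3 was the lowest of its group in both EL and ELKO for 6 of 9 tested members, Fos, Fosb, Junb, Arc, Egr1 and Npas4, against 29.7% of all genes tested. In these 6 members, which that order had picked, 72.9% to 89.1% of the sum of squares over the 6 libraries lay between the numbers and 0.752% to 16.6% between the genotypes. In Ier2 the shares were 54.6% and 43.5%, the latter the highest between genotypes of the 9 members. Over all genes tested the median share between numbers was 62.5%, and 41.6% of genes had over 70% there, so a high share was common. In Fos the ELKO minus EL difference was 0.13, -0.30 and 0.03 in pairs 1 to 3, and in Fosb it was -0.17, -0.03 and 0.35. Junb was higher in ELKO in 3 of 3 pairs, by 0.03, 0.12 and 0.28, and Npas4 was lower in 3 of 3, by -0.15, -0.03 and -0.03. Nr4a1 and Dusp1 did not follow the numbers, with 9.35% and 10.5% of the sum of squares between them and 20.8% and 13.02% between the genotypes, and Dusp1 ran from -0.56 in pair 2 to 0.39 in pair 1. With 3 pairs, an exact test that exchanges signs cannot go below 0.25, and no call was made. The libraries numbered 3 also had the lowest habenula lists of their groups (7.17 in EL and 7.58 in ELKO); its part was not tested.

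Over the 15 libraries the pairs of members that passed an adjusted p of 0.05 joined Fos, Fosb, Junb, Egr1 and Npas4 on one side and Nr4a1 and Dusp1 on the other. Fosb and Junb were the closest pair (r = 0.87, permutation p = 2.00e-05, adjusted p = 0.000720; rho = 0.88, permutation p = 5.00e-05, adjusted p = 0.00180), with r = 0.83 without the 2 libraries farthest from the median of Fosb and r = 0.90 after centring within genotypes. Fos and Fosb followed (r = 0.85, permutation p = 0.000110, adjusted p = 0.00198; rho = 0.84, permutation p = 0.000160, adjusted p = 0.00216), with r = 0.76 without the 2 farthest libraries and 0.87 after centring. Among the 15803 other genes tested, the 2 with the highest r with Fosb were Junb and Fos in that order. Other pairs ranked lower: Fos was at rank 516 for Junb, and the best member was at rank 51 for Npas4 and 156 for Dusp1. Non-members had the highest r with Fos (Pcbp3, 0.88) and with Dusp1 (Syndig1, 0.93). In this first set, r was 0.76 for Fosb with Egr1, 0.69 for Fos with Egr1, 0.69 for Fosb with Npas4, 0.68 for Fos with Npas4, 0.64 for Fos with Junb and 0.63 for Junb with Npas4, with adjusted p-values from 0.0134 to 0.0471. The rho of Junb with Npas4 did not pass (0.61, adjusted p = 0.0664). Fos with Junb was the pair that weakened most without the 2 farthest libraries, to r = 0.48. Not every pair within the set passed, as for Egr1 with Npas4 (r = 0.41, adjusted p = 0.354).

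Nr4a1 and Dusp1 were the other pair that passed (r = 0.68, permutation p = 0.00430, adjusted p = 0.0263; rho = 0.71, permutation p = 0.00348, adjusted p = 0.0200), with r = 0.64 without the 2 farthest libraries and 0.74 after centring. They were not separate from the first set: their r was 0.58 and 0.31 with Fos, 0.35 and 0.25 with Egr1, 0.23 and -0.00087 with Fosb, 0.21 and 0.08 with Npas4, and -0.09 and -0.23 with Junb. Fos with Nr4a1 had an adjusted p of 0.0755, and its r of 0.58 was above that of Egr1 with Npas4. That r was 0.68 without the 2 farthest libraries and 0.74 after centring, at least as high as for Nr4a1 with Dusp1. The division into 2 groups thus rests on the adjusted p over all 15 libraries. Without ELKO replicate 1, the r of the pairs that passed lay between 0.63 and 0.87 (n = 14). In all, 9 of the 36 pairs passed an adjusted p of 0.05 for r, each with a positive r, and 15 pairs had a negative r. Arc and Ier2 had no partner among the members that passed: the highest r of Arc was 0.19, with Junb, and that of Ier2 was 0.22, with Npas4. The genes with the highest r with each, chosen after the values were seen, were Fam20b for Arc (0.92) and Nr1d1 for Ier2 (0.81), over the 15 libraries and 15803 genes. Since the members were chosen as a family, these p-values describe the 15 libraries.

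**Figure D5:**
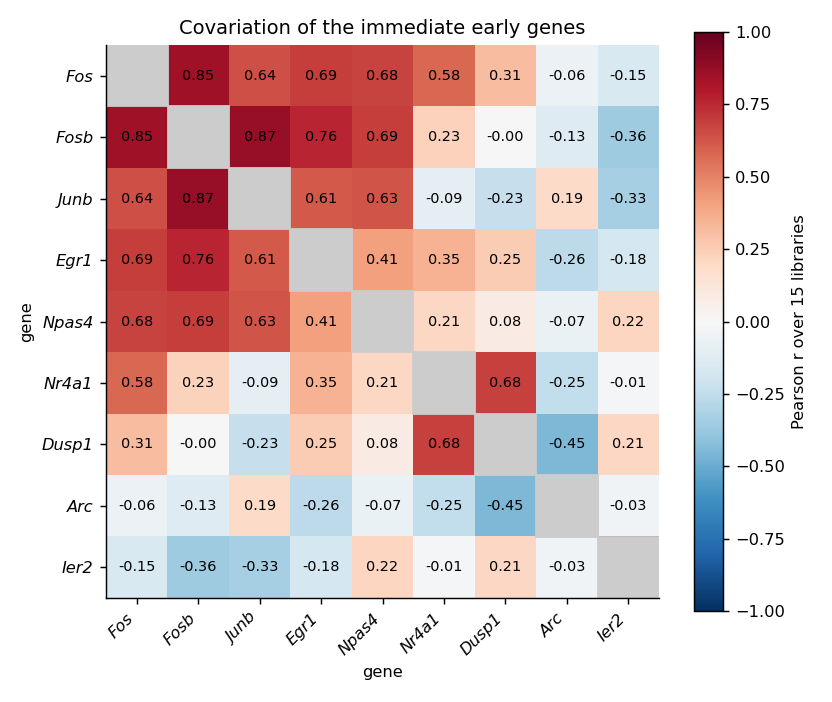
Pearson r over 15 libraries for each pair of the 9 tested members (both axes are genes; grey marks the diagonal). The red block holds Fos, Fosb, Junb, Egr1 and Npas4, from 0.41 to 0.87; Nr4a1 and Dusp1 share 0.68, Fos with Nr4a1 has 0.58, and the highest r of Arc is 0.19.

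Other genes of the same response were counted from lists written by hand. Of 40 other immediate early genes, 39 were tested. In 5ELKO against 5EL 0 of 39 were called, against 0.254% of all genes tested, and in 5ELKO against ELKO 0 of 39, against 0.399%. In 5EL against EL 3 of 39 were called, against 2.41% of all genes: Btg2, an antiproliferative gene, higher by 0.27 (SE 0.11), Dusp5, a phosphatase of ERK, lower (-0.33, SE 0.10) and Gpr3, a constitutively active receptor that raises cyclic AMP, lower (-0.28, SE 0.10). The same 3 were called in ELKO against EL, where 0.538% of all genes were, at 0.29 for Btg2, -0.27 for Dusp5 and -0.31 for Gpr3. Their adjusted p-values were 0.630 and 0.998, and both comparisons use the same 3 EL libraries. In the difference between effects, with 1.2% of all genes called, Dusp5 (0.39) and Gpr3 (0.37) were called above 0 and Btg2 (-0.41) below it, from the same libraries. The median of the 39 was 0.01 in 5ELKO against 5EL and 0.04 in 5EL against EL. In those libraries Gpr3 was 7.43, 7.88 and 7.64, and Btg2 was 7.60, 7.71 and 7.58.

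Delayed activity-regulated genes are the second wave, induced after the early factors have been made. Of 19 tested, 0 were called in 5ELKO against 5EL, in ELKO against EL, in 5ELKO against ELKO and in the difference between effects. In that order 0.254%, 0.538%, 0.399% and 1.2% of all genes were called, so 0 of 19 was near those shares. In 5EL against EL 2 of 19 were called, against 2.41% of all genes. Pcdh8, a protocadherin, was higher by 0.54 (SE 0.20) and Rgs4, a regulator of G protein signalling, was lower (-0.41, SE 0.17), both with an adjusted p of 0.630. The EL libraries held the extremes of both genes: Pcdh8 was 8.62, 8.23 and 7.57 and Rgs4 was 12.97, 13.26 and 13.76, with replicate 3 at the end each time. Of 27 upstream regulators, only Camk4, a calcium-dependent kinase that phosphorylates CREB, was called, lower in 5EL than in EL (-0.37, SE 0.10) and in ELKO than in EL (-0.29, SE 0.11), and higher in the difference between effects (0.31, SE 0.14). That is 1 of 27 in each, against 2.41%, 0.538% and 1.2% of all genes. Its values in EL were 10.79, 10.88 and 11.13.

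The members' mean deviation was also compared with every other gene. The 10 genes most like it over the 15 libraries, of 15795 non-members, were Lrrc41 (r = 0.86), Pcbp3 (0.82), Edc4 (0.81), Rev1 (0.81), Cry2 (0.80), Ripk4 (0.80), Smarcd1 (0.79), Vps33b (0.78), Ppargc1b (0.78) and Mapk1ip1l (0.77). Among the other immediate early genes, Fosl2, a further AP-1 subunit, was the most like at rank 23 (r = 0.74), and Nr4a3, a relative of Nr4a1, followed at rank 68 (r = 0.69). That list ran down to Fbxo33 at rank 13749 (r = -0.43), with Jund at 0.14 and Jun at -0.24. All these r values come from the same 15 libraries and are given as a description.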

How the data were processed

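RNA from mouse thalamus was sequenced in bulk, and 15 libraries of 4 genotypes were analysed. The authors trimmed reads with Trimmomatic 0.39 after FastQC 0.11.9, aligned them to GRCm38 with HISAT2 2.2.1 and SAMtools 1.16.1, summed exonic read pairs per gene symbol, ignoring strand, with featureCounts 2.0.3, and used DESeq2 1.38.3. The annotation release is not given in the sources used here. The deposited values are on a log2 scale, from -2.27 to 18.98 for 29659 genes, and their transform is not named. Without counts, the depth behind a gene is unknown. The study's supplement lists total reads and RNA integrity for the sequenced 5EL and 5ELKO samples, which were not used here. Some 5ELKO samples had lower integrity there than any 5EL sample, and its part in the differences was not tested. One further 5ELKO library was not analysed here.

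Values were tested in limma 3.58.1 (R 4.3.3; lmFit, eBayes with a trend, Benjamini-Hochberg over all genes tested): 5ELKO against 5EL on 9 libraries, other contrasts on 15. Genes needed at least 10 on the linear scale in 4 of 9 or 3 of 15 libraries. The call was the study's threshold, a nominal p under 0.05 with a fold over 1.2. Single genes had two-sided exact permutation tests, and correlations permutation tests with 100000 resamples (scipy 1.17.1). Those for correlations exchanged all 15 libraries freely, across genotypes and same-numbered libraries. Tested on simulated data, the fit recovered 94.5% of 200 genes changed by 1 log2 unit in 5ELKO against 5EL over 15741 genes, and made 0 calls at an adjusted p under 0.05 with none changed. The members' differences were all smaller than 1 log2 unit, so the recovery does not measure the sensitivity at their size.

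The members and all gene lists were chosen with earlier results of these data known. Named genes were all 10 members, genes of 3 related lists past the threshold (at most the 5 largest folds per list and contrast), and the 10 genes most like the members' mean deviation. Replicate numbers and groups come from the labels. EL and ELKO libraries of the same number deviated together (correlations over 15804 genes of 0.45, 0.33 and 0.74), so these numbers were taken to pair the libraries; what they share is not stated. The study drew its sequenced 5EL and 5ELKO samples at random from mice and lists each under its own number. For EL and ELKO nothing states that replicates are separate animals, and p-values there measure the spread between these libraries. Of 105 pairs of libraries, 0 were identical. Gene coordinates are from GENCODE M21, and promoters from RefSeq. Alternatives covered the filter, variance prior, scaling, replicate block, covariates, samples in the fit and left-out libraries. All 15 deposited files were used.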

Additional observations from a re-analysis of the deposited data

Results flagged for a closer look

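Junb was called at the nominal threshold only, in the difference between the contrasts of the deletion with and without 5xFAD. Its log2 difference was -0.25 for 5ELKO against 5EL and 0.14 for ELKO against EL, and the difference between them, -0.39, had a nominal p of 0.0232 and an adjusted p of 0.9996 over 15804 genes by limma. In these same values, Junb was lower in 5ELKO than in every 5EL library in 3 of 4 libraries, and higher in ELKO in 3 of 3 same-numbered pairs. The call was lost without EL replicate 3, without ELKO replicate 1 and without ELKO replicate 2. In 20 groups of 4 or 5 libraries, over the 10 members, 0 held a library far enough from the rest to pass Dixon's test.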

How the results depend on the processing

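Under the alternatives, 849 of 936 differences of single members kept their sign and their side of the threshold, 69 changed sign (0 of these with a p under 0.05), 7 lost a call and 11 gained one; 89 of 104 member counts were unchanged. The cause was not tested for any of these.

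With the replicate block, 2 members were called in 5ELKO against 5EL (Fosb, -0.40, and Junb, -0.27) and 2 in 5EL against EL (Fosb, 0.65, and Junb, 0.43); the libraries of these groups share only a number (correlations of same-numbered deviations of -0.07, -0.24, -0.03 and 0.14 in the first, and 0.05, 0.23 and 0.19 in the second). In these 2 block fits 0.445% and 3.83% of all genes were called, against 0.254% and 2.41% without the block. Of the 6 EL and ELKO libraries, 5 correlated best with their own number, and the block changed no member's call in ELKO against EL. With the cortex and hippocampus covariate the counts were 1 (Junb) and 0, where 68 of 15743 and 159 of 15804 genes were called. Without both EL and ELKO libraries numbered 3, chosen after seeing the data, 5EL against EL had 0, with 94 of 15821 genes called. Without 5EL replicate 1 and ELKO replicate 2, which held choroid plexus genes, the difference between effects had 0. There 151 of 15820 genes were called. Leaving out 1 library at a time gave 0 to 3 members in 5ELKO against 5EL and 0 to 1 in ELKO against EL. It gave 0 to 2 in 5EL against EL and 0 to 1 in the difference between effects. Calls over all genes moved in the same settings and are given below.

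The differences that changed sign were these. In 5ELKO against 5EL, Fos was 0.0466 and Arc -0.0220 without the choroid plexus libraries. In ELKO against EL, Fosb was -0.0237 and Arc -0.00409 with the covariate, and Fosb -0.0114 without the choroid plexus libraries and -0.0960 without those numbered 3. In 5EL against EL, Npas4 was -0.00665 with the covariate and -0.00190 without the choroid plexus libraries, and without those numbered 3 Fos was -0.0689, Egr1 -0.00967 and Npas4 -0.0388. In 5ELKO against ELKO, Egr1 was 0.0103 with the replicate block and 0.00785 with Xist as covariate, Fosb -0.0544 with the cortex covariate, Nr4a1 -0.0256 without the choroid plexus libraries, and Fos -0.0509 and Fosb -0.0949 without those numbered 3. In the difference between effects, Fos was 1.73e-06 and Arc 0.0150 after recentring, Arc 0.0123 with quantile normalization and 0.0630 with the replicate block, Fos 0.00121 and Arc 0.0316 with the cortex covariate, Fos 0.0327 with Xist, Fos 0.139 without the choroid plexus libraries, and Fos 0.0180 and Dusp1 -0.00527 without those numbered 3.

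Leaving out 1 library moved members across 0 within these ranges. In 5ELKO against 5EL they were -0.186 to 0.0466 for Fos and -0.0220 to 0.148 for Arc. In ELKO against EL they were -0.240 to 0.125 for Fos, -0.218 to 0.220 for Fosb, -0.0653 to 0.298 for Arc, -0.0256 to 0.101 for Egr1 and -0.155 to 0.00256 for Npas4. In 5EL against EL they were -0.0689 to 0.296 for Fos, -0.00967 to 0.126 for Egr1 and -0.0388 to 0.117 for Npas4. In 5ELKO against ELKO they were -0.0509 to 0.214 for Fos, -0.148 to 0.140 for Fosb, -0.285 to 0.0103 for Egr1, -0.0256 to 0.117 for Nr4a1 and -0.135 to 0.0129 for Ier2. In the difference between effects they were -0.191 to 0.173 for Fos, -0.218 to 0.145 for Arc and -0.0247 to 0.262 for Dusp1.

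Counts over all genes moved more. In 5ELKO against 5EL, 40 calls became 70 with the replicate block, 68 with the cortex covariate and 42 to 85 with 1 library left out. In ELKO against EL, 85 became 237 with the block, 44 without the choroid plexus libraries, 44 with these groups alone in the fit, 150 without the libraries numbered 3, and 40 (without EL replicate 3) to 914 (without EL replicate 1). In 5EL against EL, 381 became 605 with the block, 159 with the cortex covariate, 94 without the libraries numbered 3 and 86 (without EL replicate 3) to 1429 (without EL replicate 1). In 5ELKO against ELKO, 63 became 116 without the libraries numbered 3 and 43 to 160 with 1 left out. In the difference between effects, 190 became 346 with the block over EL and ELKO pairs and 137 to 786 with 1 left out. The deposited values give no depth, so the precision of a low gene such as Egr2 is unknown.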
